A study of Mus musculus with 12 samples.

Results

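The genes described here are 9 mouse genes linked to lymphoid priming, Sox4, Cd27, Cd37, Il12a, Gpr171, Lax1, Cd2, Blnk and Il7r, taken by name from a table of 14143 genes measured by RNA-seq in hematopoietic stem cells (HSCs). All 9 had a value in each of the 12 libraries. The study compared lymphoid-biased HSCs (Ly-HSCs) with myeloid-biased HSCs (My-HSCs) in old and young female C57BL6J mice. The 4 groups were old Ly-HSCs, young Ly-HSCs, old My-HSCs and young My-HSCs, with 3 libraries each from independent groups of mice. Old mice were 18 months old and came from the National Institute on Aging colony. Young mice were 8 to 10 weeks old by the sample labels, and up to 12 weeks by the protocol, and came from the Jackson Laboratory or a UCLA colony, so age and colony cannot be told apart. All cells were sorted as lineage-negative, with CD48 in the lineage cocktail, and as c-kit-positive, Sca-1-positive and CD135-negative. Low CD150 defined Ly-HSCs and high CD150 defined My-HSCs. The labels name no genetic change or treatment.

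Lymphoid priming is the low transcription of genes typical of lymphocytes and their precursors in stem and progenitor cells that are not yet committed to a lineage. It is best known in multipotent progenitors, in which the transcription factors Ikaros, E2A and PU.1 take part and in which the cytokine receptors FLT3 and IL-7 receptor later mark the lymphoid path. Among HSCs, surface CD150 separates cells that tend toward lymphoid output (low) from cells that tend toward myeloid output (high), and the CD150-high fraction grows with age in mice. The 9 genes fall into 4 roles. Sox4 is a transcription factor with an HMG box that mouse B cell development requires. Cd27, Cd37, Gpr171, Cd2 and Il7r encode surface proteins, Il12a encodes a cytokine subunit, and Lax1 and Blnk encode adaptors of antigen receptor signalling.

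Promoter sequences are shown for Sox4, Cd27 and Cd37, the 3 genes that differed between the subsets in the results that follow. They are RefSeq sequences on GRCm38.p6, from 250 bases before to 50 bases after the gene's start, written 5′ to 3′ on the gene's strand. Capitals mark matches on either strand to GGGAA (the Ikaros core), CAGGTG (an E-box bound by E proteins), TGTGGT (the Runx core), AGGAAGT (a PU.1 core) and ACAAAG (a Sox and Tcf core). No matches overlapped.
Sox4, chr13:28953650-28953949, minus strand: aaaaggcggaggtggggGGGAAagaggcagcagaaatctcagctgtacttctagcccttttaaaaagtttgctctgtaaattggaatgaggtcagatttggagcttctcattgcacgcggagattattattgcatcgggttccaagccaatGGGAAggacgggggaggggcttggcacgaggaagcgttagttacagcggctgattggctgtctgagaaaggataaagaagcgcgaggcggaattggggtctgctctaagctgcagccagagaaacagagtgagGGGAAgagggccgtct
Cd27, chr6:125236978-125237277, minus strand: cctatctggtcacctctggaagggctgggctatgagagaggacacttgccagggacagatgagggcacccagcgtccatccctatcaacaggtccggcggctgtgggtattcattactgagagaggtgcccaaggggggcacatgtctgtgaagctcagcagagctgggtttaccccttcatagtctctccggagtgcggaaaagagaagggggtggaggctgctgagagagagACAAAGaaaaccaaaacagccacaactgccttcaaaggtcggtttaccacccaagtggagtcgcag
Cd37, chr7:45238790-45239089, minus strand: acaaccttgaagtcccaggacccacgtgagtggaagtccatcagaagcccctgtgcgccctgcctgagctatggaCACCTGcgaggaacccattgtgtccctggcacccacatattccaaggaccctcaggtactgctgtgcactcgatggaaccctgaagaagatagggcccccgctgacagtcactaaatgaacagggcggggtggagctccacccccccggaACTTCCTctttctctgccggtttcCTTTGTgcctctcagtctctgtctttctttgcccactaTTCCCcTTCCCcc
The Sox4 window held 3 matches to GGGAA. The Cd27 window held 1 match, to ACAAAG. The Cd37 window held 5 matches, 2 to the Ikaros core and 1 each to the E-box, the PU.1 core and the Sox and Tcf core. Of the 9 genes, 7 had at least 1 promoter in the RefSeq table. These 7 genes had 9 promoters there, with 2 each for Il12a and Lax1 that share bases in the case of Lax1. GGGAA occurred in 8 of the 9 promoters, from 6 of the 7 genes, against 62.7% of all 32851 mouse promoters in the table. The Runx core occurred in 4 of the 9 promoters, from 3 of the 7 genes, against 16.8% of all promoters. The 2 Lax1 windows held the same GGGAA and the same Runx core match, which are counted in each window. The E-box, the PU.1 core and the Sox and Tcf core each occurred in 3 of the 9, against 20.2%, 9.35% and 18.7% of all promoters. A match is a description of letters in this window and not a binding site.

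On GRCm38 with GENCODE M21, all 9 genes are protein coding. Sox4 lies at chr13:28948919-28953713, Cd27 at chr6:125232622-125237010, Cd37 at chr7:45233632-45239115 and Il12a at chr3:68690644-68698547. Gpr171 lies at chr3:59096448-59101821, Lax1 at chr1:133679091-133690108, Cd2 at chr3:101275899-101287939, Blnk at chr19:40928927-40994535 and Il7r at chr15:9505788-9530176. Il12a is on the plus strand and the other 8 are on the minus strand. Exons of Sox4 overlap those of Gm26735, a long noncoding RNA gene on the plus strand, and exons of Cd37 overlap those of Tead2, a transcription factor gene on the plus strand. The exons of Cd27 overlap the microRNA gene Mir8113 on the same strand. Gpr171 lies within the span of Med12l on the opposite strand, without exon overlap. The library kit keeps strand, but no source used here says whether the counting did. Reads of Cd37 and Tead2, and of Sox4 and Gm26735, in their shared exons may thus not be told apart. Gm26735 had no value in the deposited data. Tead2 had 4.63 to 14.7 FPKM in Ly-HSC libraries and 6.39 to 12.4 FPKM in My-HSC libraries.

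Values are FPKM as deposited, which scale the fragments of a gene by its transcript length and by the library's mapped fragments. The files give no read totals. The spacing of low values put the library size used in the scaling at roughly 11300000 to 19400000 fragments in old Ly-HSCs, 6500000 to 12700000 in young Ly-HSCs, 13900000 to 18200000 in old My-HSCs and 13400000 to 14600000 in young My-HSCs. Between 12.1% and 34.1% of genes were listed at 0 in a library, with the highest share in young Ly-HSC library 1. Of 13 HSC markers, 11 had values and summed to 408 to 588 FPKM in Ly-HSC libraries and to 571 to 654 FPKM in My-HSC libraries. Libraries 1 of old Ly-HSCs and old My-HSCs stood apart in markers of mature cells. Granulocyte and monocyte markers, 5 of 13 of which had values, summed to 283 FPKM in old Ly-HSC library 1 and 222 FPKM in old My-HSC library 1, against 0 to 33.1 FPKM in the other 10 libraries. Erythroid markers, 6 of 9 of which had values, summed to 95.4 and 70.4 FPKM in the same 2 libraries, against at most 24.5 FPKM elsewhere. For the 6 of the 9 genes that were tested, the averaged comparisons between the subsets and between the ages are therefore also given without these 2 libraries.

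The set divided into 6 genes with FPKM of at least 8.87 in every library and 3 genes near 0 in most. By mean FPKM over the 12 libraries, Sox4 was at the 99.4th percentile of the table and Cd27 at the 98.8th. Gpr171 was at the 87.4th percentile, Lax1 at the 85.8th, Cd37 at the 82.9th and Il12a at the 74.8th. Cd2, Blnk and Il7r were at the 31.5th, 24.4th and 18.5th percentiles. Genes with at least 1 FPKM in at least 3 libraries were tested, which kept 10900 genes of the table and 6 of the 9 genes named here. Cd2, Blnk and Il7r did not pass this filter.

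**Figure D1:**
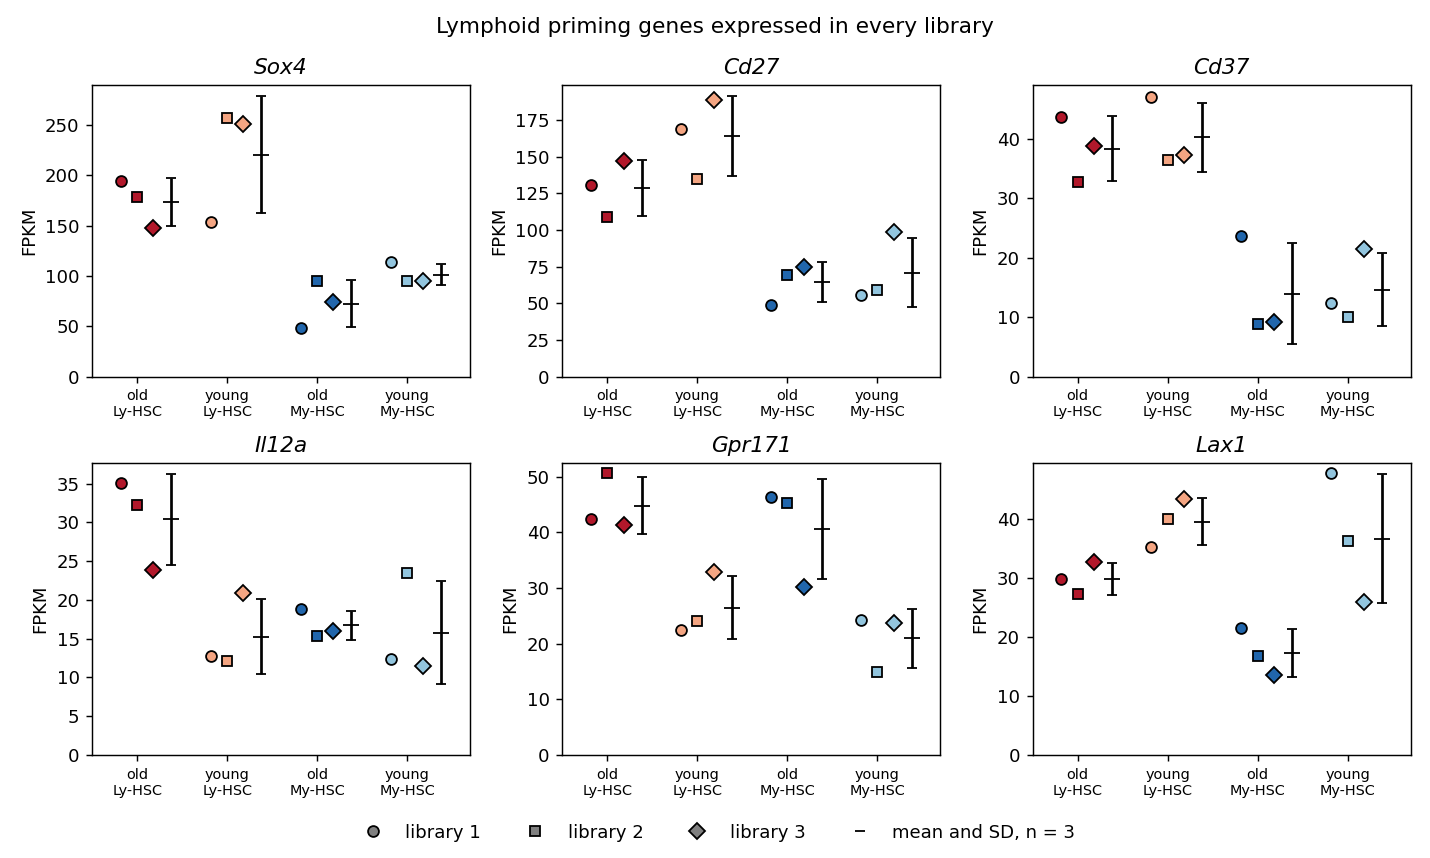
FPKM of the 6 lymphoid priming genes expressed in every library, with 1 panel per gene and the groups old Ly-HSC, young Ly-HSC, old My-HSC and young My-HSC along the horizontal axis. Points are single libraries and bars mark the mean ± SD of 3 libraries. All 6 Ly-HSC libraries lie above all 6 My-HSC libraries for Sox4, Cd27 and Cd37, while Gpr171 is higher and Lax1 lower in the old than in the young group of each subset.

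The first comparison was between the subsets. Sox4, Cd27 and Cd37 were higher in Ly-HSCs than in My-HSCs when both ages were averaged, by 2.3-, 2.2- and 2.8-fold on the FPKM + 1 scale. Il12a, Gpr171 and Lax1 did not pass the test. Across the tested genes, 0.413% were called in this comparison in either direction and 0.0917% were called higher in Ly-HSCs, which is 10 genes. A gene was called when its adjusted p, from limma with Benjamini-Hochberg adjustment over all tested genes, was under 0.05. The median log2 fold change of the 6 genes was 0.79, against -0.08 for all tested genes, and 6 of the 6 had a positive fold change, against 41.9% of all tested genes. The genes were chosen with earlier results of these data known, so this pattern is not independent support. The 3 genes ranked 13th (Sox4), 15th (Cd27) and 28th (Cd37) of 10900 by p.

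Sox4 had 194, 179 and 147 FPKM in old Ly-HSC libraries and 154, 257 and 250.5 FPKM in young Ly-HSC libraries. It had 48.7, 95.3 and 73.6 FPKM in the old My-HSC libraries and 113, 94.9 and 95.4 FPKM in young My-HSC libraries. Every Ly-HSC library was thus above every My-HSC library, and the lowest Ly-HSC value came from old library 3. The log2 fold change of Ly-HSCs over My-HSCs was 1.19 ± 0.18 (SE; 95% interval 0.80 to 1.57; adjusted p = 0.0120). The mean was 173 ± 23.9 FPKM in old and 220 ± 57.8 FPKM in young Ly-HSCs, and 72.5 ± 23.3 FPKM in old and 101 ± 10.5 FPKM in young My-HSCs (SD, n = 3 each). Young Ly-HSCs thus had the highest mean and old My-HSCs the lowest. The ranges of old and young libraries overlapped within each subset, and the ranges of the subsets did not.

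Cd27, a receptor of the tumour necrosis factor receptor family that binds CD70 and is found on lymphocytes and multipotent progenitors, had 130.5, 109 and 147 FPKM in old Ly-HSC libraries and 169, 135 and 189 FPKM in young Ly-HSC libraries. It had 49.2, 69.6 and 74.8 FPKM in the old My-HSC libraries and 55.4, 59.2 and 98.4 FPKM in young My-HSC libraries. The lowest Ly-HSC library lay above the highest My-HSC library by a small margin, 109 against 98.4 FPKM. On the log2 scale the difference was 1.12 ± 0.17 (SE; 95% interval 0.74 to 1.49; adjusted p = 0.0140). Cd27 averaged 129 ± 19.3 FPKM in old and 164 ± 27.6 FPKM in young Ly-HSCs, and 64.5 ± 13.6 FPKM in old and 71.0 ± 23.8 FPKM in young My-HSCs (SD, n = 3 each). The order of the group means was that of Sox4, and the libraries of the ages overlapped within each subset.

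Cd37, a tetraspanin of leukocytes that is abundant on B cells, had 43.6, 32.7 and 38.7 FPKM in old Ly-HSC libraries and 47.0, 36.5 and 37.3 FPKM in young Ly-HSC libraries. It had 23.7, 8.87 and 9.14 FPKM in the old My-HSC libraries and 12.3, 9.98 and 21.5 FPKM in young My-HSC libraries. Within each My-HSC group 1 library stood above the other 2, old library 1 and young library 3, and both were still below every Ly-HSC library. For Cd37 the log2 fold change was 1.50 ± 0.26 (SE; 95% interval 0.93 to 2.06; adjusted p = 0.0267). The mean level was 38.3 ± 5.46 FPKM for old Ly-HSCs, 40.2 ± 5.85 FPKM for young Ly-HSCs, 13.9 ± 8.50 FPKM for old My-HSCs and 14.6 ± 6.10 FPKM for young My-HSCs (SD, n = 3 each). The ages thus lay within each other's spread.

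The 3 calls rested on the average over both ages. Within old mice the log2 fold changes of Ly-HSCs over My-HSCs were 1.29 for Sox4 (adjusted p = 0.120), 1.00 for Cd27 (adjusted p = 0.307) and 1.53 for Cd37 (adjusted p = 0.307). Within young mice they were 1.08 (adjusted p = 0.0902), 1.23 (adjusted p = 0.0585) and 1.46 (adjusted p = 0.120) for the same genes. None of the 6 genes was called within an age, where 0.0275% of tested genes were called in old and 0.119% in young mice. In old mice 5 of the 6 genes had every Ly-HSC library above every My-HSC library, against 7.53% of all tested genes, and in young mice 3 of the 6 did, against 4.41%. Over both ages Sox4, Cd27 and Cd37 were 3 of 40 such genes, or 0.367% of those tested. Without the old libraries 1 of both subsets, Sox4 had a log2 fold change over both ages of 1.01 (adjusted p = 0.0798), Cd27 1.02 (adjusted p = 0.103) and Cd37 1.67 (adjusted p = 0.0402). Within old mice the log2 fold change without these libraries was 0.95 for Sox4, 0.80 for Cd27 and 1.87 for Cd37, none of them called. With the pairing of same-numbered libraries within an age as a block, adjusted p of the average over both ages was 0.0687 for Sox4, 0.0384 for Cd27 and 0.0687 for Cd37.

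Single libraries also decided some of these calls. Sox4 was called with each of the 12 libraries left out in turn, at an adjusted p of at most 0.0486. Cd27 was not called without library 1 of old Ly-HSCs (adjusted p = 0.0510), nor without their library 3 (adjusted p = 0.0519). Cd37 was not called without old Ly-HSC library 1, 2 or 3, old My-HSC library 2 or 3, or young My-HSC library 1 or 2, with adjusted p of 0.0571 to 0.0995. Of 11 HSC markers tested in the same comparison, 3 were called, each lower in Ly-HSCs. Of all tested genes, 0.321% were called lower. They were Slamf1, which encodes the sort antigen CD150 (log2 fold change -2.62, adjusted p = 0.0081), Fgd5 (log2 fold change -0.97, adjusted p = 0.0048) and Hoxb5 (log2 fold change -2.40, adjusted p = 0.0437). The 7 of 8 markers of lymphoid and multipotent progenitors with values, Flt3 among them, summed to 15.2 to 49.0 FPKM in Ly-HSC libraries and to 0.571 to 23.5 FPKM in My-HSC libraries, so the ranges overlapped. Without the old libraries 1, the sums reached at most 30.4 FPKM in Ly-HSCs and 7.67 FPKM in My-HSCs. None of the 3 such markers tested was called, and Rag1, Rag2 and Ccr9 were highest in old My-HSC library 1 and Dntt in young My-HSC library 2. The part of HSC and progenitor make-up in the 3 differences was not tested, and in these bulk libraries a different share of cells and a different RNA level per cell cannot be told apart.

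Il12a, Gpr171 and Lax1 showed smaller differences between the subsets. On the log2 scale, Ly-HSCs minus My-HSCs was 0.40 for Il12a (95% interval -0.10 to 0.90; adjusted p = 0.562), 0.25 for Gpr171 (95% interval -0.15 to 0.65; adjusted p = 0.682) and 0.46 for Lax1 (95% interval 0.07 to 0.86; adjusted p = 0.354). The intervals of Il12a and Gpr171 include 0. Without the old libraries 1 of both subsets, the average was 0.39 for Il12a (adjusted p = 0.821), 0.32 for Gpr171 (adjusted p = 0.809) and 0.54 for Lax1 (adjusted p = 0.488). Within old mice alone, the log2 fold change was 0.81 ± 0.33 for Il12a (SE; adjusted p = 1) and 0.78 ± 0.26 for Lax1 (SE; adjusted p = 0.773). Within young mice it was -0.01 for Il12a and 0.14 for Lax1.

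**Figure D2:**
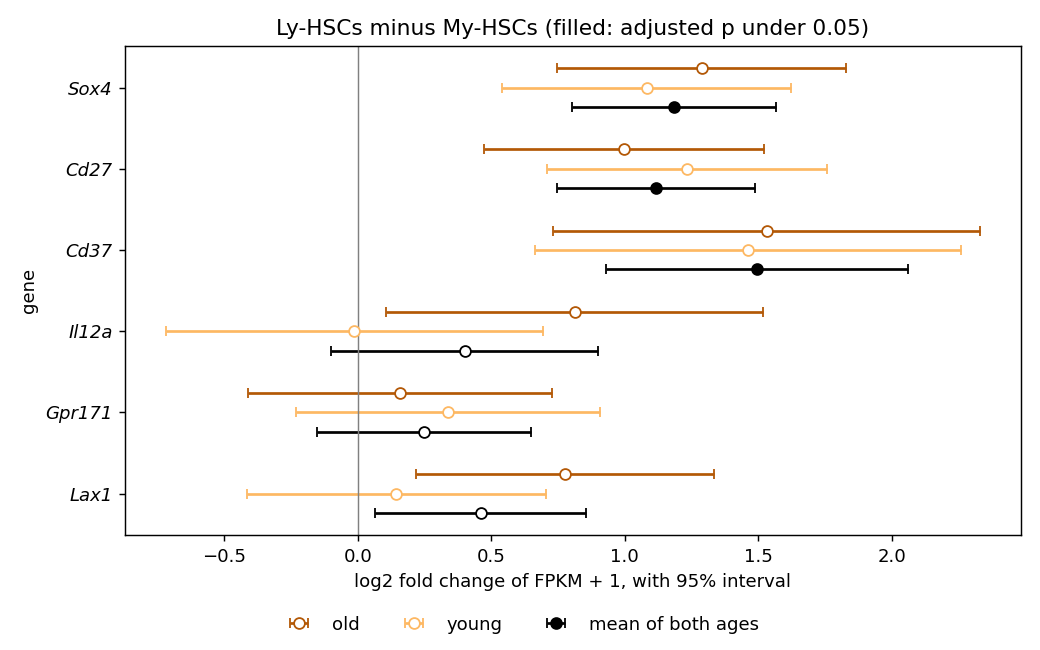
Log2 fold change of FPKM + 1, Ly-HSCs minus My-HSCs, with 95% intervals for the 6 tested genes in old mice, in young mice and averaged over both ages. Filled points mark an adjusted p under 0.05, which Sox4, Cd27 and Cd37 reached only in the average over both ages, at 1.19, 1.12 and 1.50.

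The second comparison was between ages. None of the 6 tested genes was called between old and young mice. The shares of all tested genes called were 0.349% in Ly-HSCs, 0.211% in My-HSCs and 0.844% in the average of both subsets. Gpr171 and Il12a had the highest positive log2 fold changes among the 6 and Lax1 the lowest, and these 3 were the ones whose old and young libraries separated in a subset. The median log2 fold change of the 6 genes was -0.19 in Ly-HSCs and -0.12 in My-HSCs, against 0.18 and 0.07 for all tested genes.

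Gpr171, a G protein-coupled receptor related to the P2Y receptors, had 42.4, 50.7 and 41.4 FPKM in old Ly-HSC libraries, against 22.4, 24.1 and 32.9 FPKM in young Ly-HSC libraries. It had 46.3, 45.4 and 30.2 FPKM in old My-HSC libraries, against 24.3, 14.9 and 23.7 FPKM in young My-HSC libraries. In each subset every old library was above every young library. The log2 fold change of old over young was 0.75 ± 0.26 in Ly-HSCs (SE; adjusted p = 0.249), 0.93 ± 0.26 in My-HSCs (SE; adjusted p = 0.320) and 0.84 ± 0.19 in their average (SE; 95% interval 0.44 to 1.24; adjusted p = 0.0596). By group mean the order was old Ly-HSCs at 44.8 ± 5.08, old My-HSCs at 40.6 ± 9.06, young Ly-HSCs at 26.5 ± 5.65 and young My-HSCs at 20.96 ± 5.29 FPKM (SD, n = 3 each). The average over both subsets passed the threshold without young Ly-HSC library 3 (adjusted p = 0.0359) and after quantile normalization (adjusted p = 0.0494). Med12l, in whose span Gpr171 lies, had a mean of 58.3 FPKM in old and 55.5 FPKM in young Ly-HSCs, and 76.7 FPKM in old and 77.5 FPKM in young My-HSCs.

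Il12a encodes the p35 chain shared by interleukin 12 and interleukin 35. It had 35.1, 32.3 and 23.8 FPKM in old Ly-HSC libraries, against 12.8, 12.1 and 20.9 FPKM in young Ly-HSC libraries. It had 18.8, 15.4 and 16.0 FPKM in old My-HSC libraries, against 12.4, 23.4 and 11.4 FPKM in young My-HSC libraries. Old libraries lay above all young ones in Ly-HSCs, and the ages overlapped in My-HSCs. For Il12a the log2 fold change of old over young was 0.97 ± 0.33 in Ly-HSCs (SE; 95% interval 0.26 to 1.68; adjusted p = 0.231) and 0.15 ± 0.33 in My-HSCs (SE; adjusted p = 0.984), and 0.56 ± 0.23 in their average (SE; 95% interval 0.06 to 1.06; adjusted p = 0.285). The difference of these age effects was 0.83 ± 0.46 (SE; 95% interval -0.17 to 1.82; adjusted p = 0.904). Old Ly-HSCs had the highest mean, 30.4 ± 5.87 FPKM, and the other groups lay within each other's spread at 16.7 ± 1.86 in old My-HSCs, 15.3 ± 4.87 in young Ly-HSCs and 15.7 ± 6.66 FPKM in young My-HSCs (SD, n = 3 each).

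Lax1, a transmembrane adaptor that dampens antigen receptor signalling in lymphocytes, had 29.8, 27.3 and 32.7 FPKM in old Ly-HSC libraries, against 35.3, 40.1 and 43.4 FPKM in young Ly-HSC libraries. It had 21.5, 16.8 and 13.6 FPKM in old My-HSC libraries, against 47.8, 36.3 and 26.0 FPKM in young My-HSC libraries. In both subsets every old library was below every young library. Old over young, the log2 fold change was -0.39 ± 0.26 in Ly-HSCs (SE; adjusted p = 0.525), -1.02 ± 0.26 in My-HSCs (SE; 95% interval -1.58 to -0.47; adjusted p = 0.204) and -0.71 ± 0.18 in their average (SE; adjusted p = 0.104). The difference of the age effects was 0.63 ± 0.37 (SE; 95% interval -0.16 to 1.42; adjusted p = 0.904). Lax1 averaged 29.9 ± 2.72 FPKM in old and 39.6 ± 4.07 FPKM in young Ly-HSCs, and 17.3 ± 4.01 FPKM in old and 36.7 ± 10.9 FPKM in young My-HSCs (SD, n = 3 each). The young groups had the highest means, with libraries that overlapped, and old My-HSCs the lowest.

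Sox4, Cd27 and Cd37 were not called between ages either. The log2 fold change of old over young was -0.32 in Ly-HSCs and -0.52 in My-HSCs for Sox4, -0.35 and -0.11 in the same subsets for Cd27, and -0.07 and -0.14 for Cd37, with adjusted p of 0.551 to 0.989. Averaged over both subsets it was -0.42 for Sox4 (95% interval -0.80 to -0.04; adjusted p = 0.299), -0.23 for Cd27 (adjusted p = 0.584) and -0.10 for Cd37 (adjusted p = 0.904). For each of the 3 genes the old and young libraries overlapped in both subsets. In Ly-HSCs the genes whose libraries separated were Il12a and Gpr171 upward and Lax1 downward, against 11.5% of all tested genes upward and 4.5% downward. In My-HSCs they were Gpr171 upward, against 11.3%, and Lax1 downward, against 7.8%. Without the old libraries 1 of both subsets, the log2 fold change of old over young averaged over the subsets was 0.81 for Gpr171 (adjusted p = 0.20), 0.46 for Il12a (adjusted p = 0.643), -0.79 for Lax1 (adjusted p = 0.170), -0.33 for Sox4 (adjusted p = 0.565), -0.15 for Cd27 (adjusted p = 0.855) and -0.37 for Cd37 (adjusted p = 0.684). No age effect of the 6 genes was called as different between the subsets, and limma called 0 of 10900 genes in that test. At an unadjusted p under 0.05 there were 616 genes, or 5.65% of those tested.

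**Figure D3:**
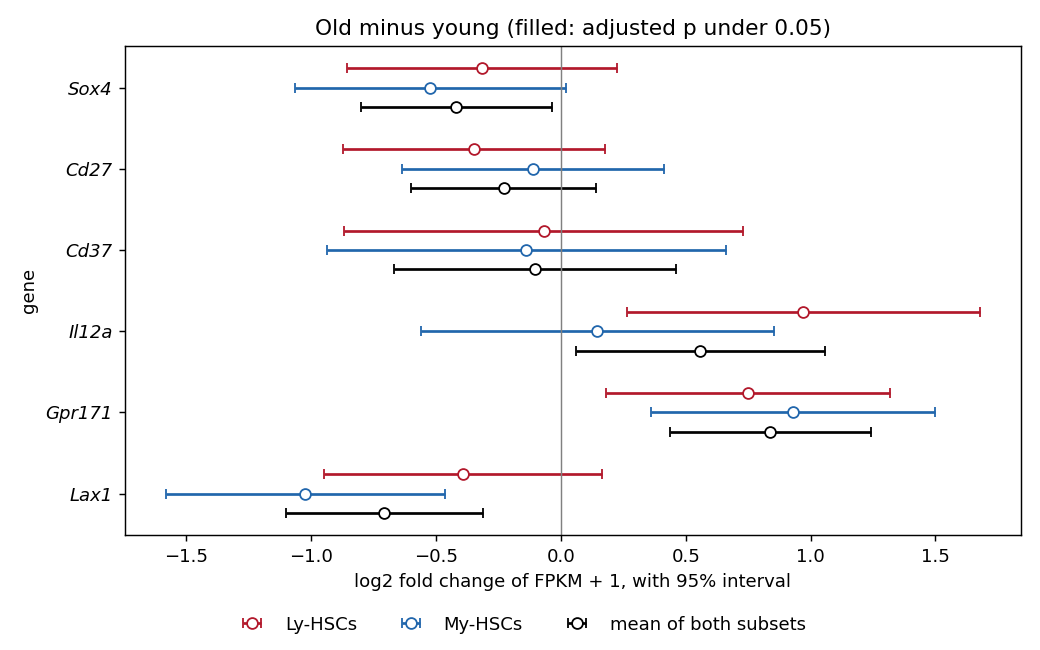
Log2 fold change of FPKM + 1, old minus young, with 95% intervals for the 6 tested genes in Ly-HSCs, in My-HSCs and averaged over both subsets. All points are open, since no adjusted p was under 0.05. Intervals of Gpr171 lie above 0 in all 3 rows and those of Il12a in Ly-HSCs and in the average. Intervals of Lax1 lie below 0 in My-HSCs and in the average, and that of Sox4 in the average.

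Cd2, Blnk and Il7r, which did not pass the filter, were near 0 in most libraries. Cd2, an adhesion receptor of T and NK cells that binds CD48 in mice, had 20.8, 0.212 and 0 FPKM in old Ly-HSC libraries and 0, 0.907 and 0 FPKM in young Ly-HSC libraries. It had 6.04, 0.159 and 0 FPKM in the old My-HSC libraries and each of the 3 young My-HSC libraries listed it at 0. Cd2 was thus at 0 in 7 of 12 libraries, and only the old libraries 1 exceeded 1 FPKM.

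Blnk, the adaptor that links the B cell receptor kinase Syk to downstream enzymes, had 4.47, 0.0597 and 0.654 FPKM in old Ly-HSC libraries and 0, 0.486 and 0.206 FPKM in young Ly-HSC libraries. It had 2.74, 0.250 and 0.439 FPKM in the old My-HSC libraries and 0.957, 0.342 and 0 FPKM in young My-HSC libraries. The old libraries 1 again held its highest values. Il7r, the alpha chain of the interleukin 7 receptor, on which lymphocyte development depends, had 3.44 FPKM in old My-HSC library 1 and 0.132 FPKM in old Ly-HSC library 2. Il7r was listed at 0 in the other 10 libraries.

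The spacing of low values gave rough fragment numbers behind these levels. Cd2 rested on about 408 fragments in old Ly-HSC library 1 and 168 in old My-HSC library 1, Blnk on about 302 and 262 in the same libraries, and Il7r on about 257 in old My-HSC library 1. In the other libraries Cd2 reached at most about 20 fragments, Blnk 77 and Il7r 12. A gene listed at 0 is reported as listed, since 12.1% to 34.1% of all genes were at 0 in a library. For Il7r 1 fragment was worth an estimated 0.0111 to 0.0329 FPKM.

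The libraries with Cd2, Blnk and Il7r above 1 FPKM were those with the high sums of granulocyte, monocyte and erythroid markers. Of the B lineage markers, 10 of 13 had values and summed to 32.4 to 45.2 FPKM in old Ly-HSCs, 20.9 to 44.0 FPKM in young Ly-HSCs, 24.4 to 53.9 FPKM in old My-HSCs and 19.5 to 41.4 FPKM in young My-HSCs. Old Ly-HSC library 1 or old My-HSC library 1 held the highest value of 7 of these 10 markers. Only Cd72 and Cd79b were above 0 in all 12 libraries, and Cd72 held the highest value in each group. The other B lineage markers were at 0 in 2 to 10 libraries. The T lineage markers, 10 of 12 of which had values, summed to 25.5 to 36.7 FPKM in old Ly-HSCs, 28.7 to 54.5 FPKM in young Ly-HSCs, 24.5 to 45.2 FPKM in old My-HSCs and 19.7 to 38.2 FPKM in young My-HSCs. Old Ly-HSC library 1 or old My-HSC library 1 held the highest value of 7 of these 10 as well. Only Lck, Cd247 and Lat were above 0 in all 12 libraries. The other T lineage markers were at 0 in 2 to 11 libraries, and Cd3e, Cd3d, Cd3g, Cd8a, Cd8b1 and Cd5 in 8 to 11. The sums are thus not a measure of the markers most specific to T cells. Cd3g, a chain of the T cell receptor complex, was at 0 in 11 libraries and had 0.737 FPKM in old My-HSC library 1. Markers of NK and innate lymphoid cells, 8 of 10 of which had values, summed to 1.90 to 29.8 FPKM in old Ly-HSCs, 0 to 0.491 FPKM in young Ly-HSCs, 13.4 to 20.7 FPKM in old My-HSCs and 0.0302 to 9.84 FPKM in young My-HSCs. The 6 of 8 dendritic cell markers with values reached at most 9.44 FPKM in sum in old Ly-HSCs, 0 in young Ly-HSCs, 20.6 FPKM in old My-HSCs and 1.15 FPKM in young My-HSCs. The part of mature cells in these values was not tested. Without the old libraries 1, Cd2 reached at most 0.907 FPKM, Blnk 0.957 FPKM and Il7r 0.132 FPKM. Without a low-value filter none of the 3 genes was called in any of the 7 comparisons.

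**Figure D4:**
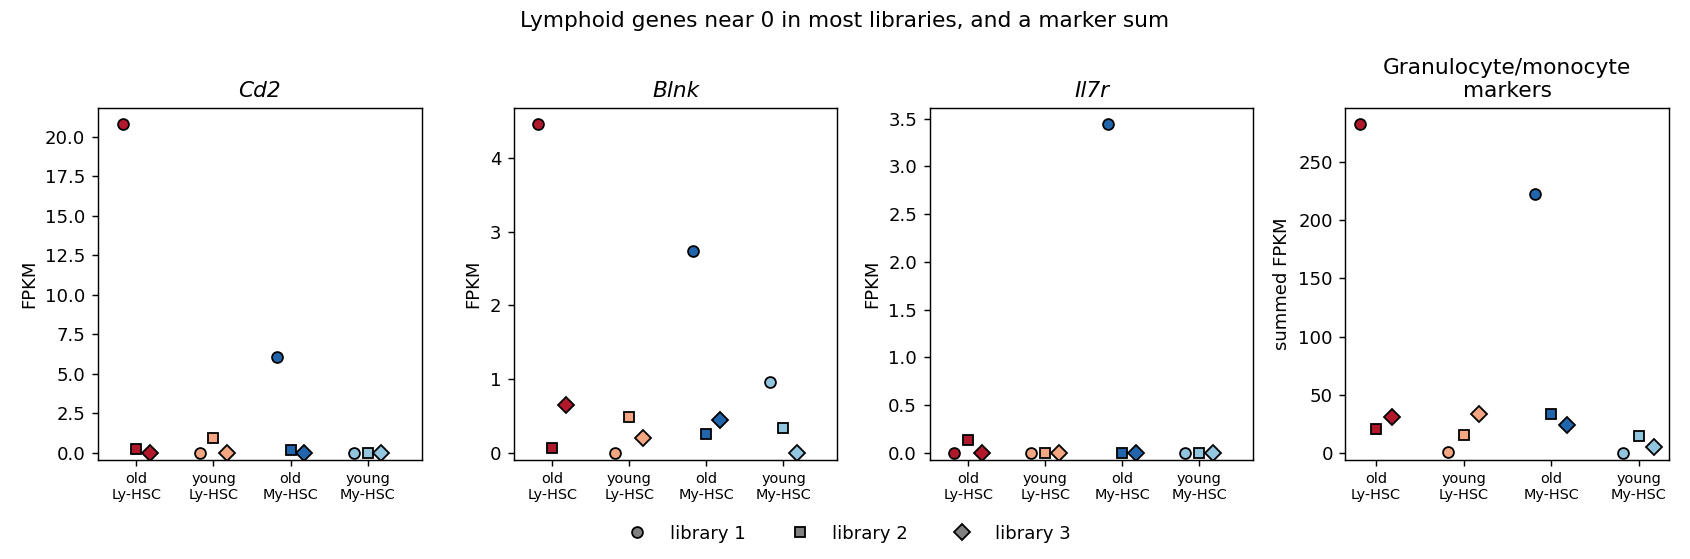
FPKM of Cd2, Blnk and Il7r and the summed FPKM of 5 granulocyte and monocyte markers in each of the 12 libraries, by group, with symbols for library 1, 2 and 3. The highest values of Cd2 and Blnk and the highest marker sums are in old Ly-HSC library 1 and old My-HSC library 1, at 20.8 and 6.04 FPKM for Cd2, and Il7r reaches 3.44 FPKM in old My-HSC library 1.

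Genes around these 9 in the same pathways were read from 8 lists with 92 entries, of which 81 had a value and 63 were tested. None was called in any of the 7 comparisons. Between Ly-HSCs and My-HSCs averaged over both ages, 36 of the 63 had a positive log2 fold change, against 41.9% of all tested genes. Their median was 0.03, against -0.08 for all tested genes. The kinases of the Blnk pathway had higher means in Ly-HSCs without passing the threshold. Syk had means of 42.4 ± 2.26 in old and 63.1 ± 15.8 FPKM in young Ly-HSCs, and 23.7 ± 13.6 in old and 27.3 ± 5.34 FPKM in young My-HSCs (SD, n = 3 each; log2 fold change averaged over ages 1.06 ± 0.23, adjusted p = 0.0675). Btk had means of 53.8 ± 7.57 and 69.0 ± 19.1 FPKM in old and young Ly-HSCs, and 33.7 ± 1.58 and 37.0 ± 8.33 FPKM in old and young My-HSCs (SD, n = 3 each; log2 fold change 0.76 ± 0.17, adjusted p = 0.0664). Of the 14 tested antigen receptor adaptors and kinases, 11 had a positive fold change, with a median of 0.23. In the same comparison 10 of 17 lymphoid transcription factors had a positive log2 fold change (median 0.01), as did 2 of 9 genes of interleukin 7 receptor signalling (median -0.11), 2 of 4 of the interleukin 12 family and its receptors (median 0.19), 6 of 7 ligands and partners of CD27 and CD2 (median 0.08) and 2 of 8 leukocyte tetraspanins (median -0.12). Of the genes beside Gpr171, Med12l and P2ry14 were tested, and 1 of the 2 had a positive fold change.

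Most early lymphoid genes were too low to be tested. Rag1, Rag2, Dntt, Ccr7 and Ccr9 did not pass the filter, and Flt3 did. Flt3, which encodes CD135, an antigen the cells were sorted against, had 15.1, 8.69 and 9.74 FPKM in old Ly-HSC libraries and 2.58, 22.0 and 21.9 FPKM in young Ly-HSC libraries. It had 3.22, 1.22 and 1.02 FPKM in the old My-HSC libraries and 0.571, 0.793 and 4.01 FPKM in young My-HSC libraries. Its log2 fold change of Ly-HSCs over My-HSCs was 2.25 ± 0.51 averaged over ages (SE; adjusted p = 0.0822).

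Partners of Il12a and Il7r did not pass the test either. Tyk2, a kinase of the interleukin 12 receptor, had means of 20.2 ± 3.59 in old and 29.3 ± 8.80 FPKM in young Ly-HSCs, and 12.4 ± 2.84 in old and 26.1 ± 4.51 FPKM in young My-HSCs (SD, n = 3 each). Its log2 fold change of old over young was -0.76 ± 0.21 averaged over the subsets (SE; adjusted p = 0.124). Il12rb2, a chain of that receptor, had means of 5.25 ± 1.73 in old and 11.8 ± 2.27 FPKM in young Ly-HSCs, and 2.34 ± 0.902 in old and 6.59 ± 5.10 FPKM in young My-HSCs (SD, n = 3 each; log2 fold change of old over young averaged over the subsets -0.97 ± 0.43, adjusted p = 0.321). Jak1, a kinase of the interleukin 7 receptor, had means of 104 ± 3.36 in old and 96.1 ± 23.7 FPKM in young Ly-HSCs, and 112 ± 4.39 in old and 83.5 ± 2.37 FPKM in young My-HSCs (SD, n = 3 each). Cish, a feedback inhibitor of the STAT5 signal, had means of 9.97 ± 1.80 in old and 14.1 ± 2.39 FPKM in young Ly-HSCs, and 19.0 ± 3.94 in old and 25.1 ± 11.3 FPKM in young My-HSCs (SD, n = 3 each).

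Genes with the most similar pattern were found by Pearson correlation of log2(FPKM + 1) over the 12 libraries, which share group means, depth and any technical difference, so the values are descriptions. For Sox4 they were Actr8 (0.903), Gmfg (0.896) and Cd34 (0.887), and for Cd27 they were Cmtm7 (0.924), Cd34 (0.916) and Chaf1b (0.895). Cd34, which encodes a surface glycoprotein of progenitors, was on both lists. For Cd37 they were Ppox (0.900), Syk (0.889) and Rel (0.876), and for Il12a they were 2010109A12Rik (0.892), Lin9 (0.888) and Ppih (0.879). For Gpr171 they were B3galt1 (0.870), Creg1 (0.853) and Cd74 (0.838), and for Lax1 they were Ankrd26 (0.935), Ints6l (0.899) and Ptpn7 (0.885).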

How the data were processed

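RNA-seq was analysed in 12 libraries of sorted mouse HSCs, 3 for each of 4 groups taken from the labels. Per the labels' protocols, Direct-Zol was used for RNA, a KAPA stranded mRNA kit for libraries and a HiSeq3000 for paired reads. Values in the deposited table are FPKM per gene and library, normalized by the authors. The submitters' processing notes name the tools STAR, bcl2fastq 2.17 and DESeq2, without their roles, and GRCm38 (mm10) as the build. Their annotation, gene filter, strand setting and treatment of reads with several matches were not given in the sources used here. GENCODE M21 held 14139 of 14143 gene identifiers, with the version suffix left out.

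Values were analysed as log2(FPKM + 1), for genes with at least 1 FPKM in at least 3 libraries, so fold changes are on that scale and understate the change of low genes. Limma 3.58.1 under R 4.3.3 fitted a single model with a mean for each group to the 12 libraries, using trend = TRUE (8 residual and 5.11 prior degrees of freedom). The 7 contrasts were old minus young in each subset and on average, Ly-HSCs minus My-HSCs at each age and on average, and the interaction. Two-sided p-values were adjusted by Benjamini-Hochberg over all tested genes of a contrast. The fit was tested on simulated data with 200 changed genes. P-values measure the spread between libraries, which the main fit treats as independent. The correlation of same-numbered old libraries given below is not part of that fit. Library sizes were estimated from the spacing of low FPKM times exon length. Between 36.4% and 54.8% of the values checked lay within 0.1 of a whole multiple, so they are approximate.

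Library numbers paired old Ly-HSCs with old My-HSCs, with deviations from the group means correlated at 0.256, 0.233 and 0.210 for numbers 1, 2 and 3. They did not pair the young subsets (0.0482, 0.00260 and 0.00233). Alternatives were another pseudocount, other filters, quantile normalization, a replicate block, weights per group, fits on the compared libraries alone and leaving out libraries. Leaving out both old libraries 1 together was chosen after seeing the data. The 9 genes and the other lists were chosen with earlier results of these data known, so no pattern here is independent support of those. All 9 genes are named. From each other list the genes named are those called in any contrast, otherwise the 2 with the smallest p within a subset or an age, and the text describes some of these. A gene of the early lymphoid list is not reported here. Markers of other cell types were given as sums over those with a value. Figures were drawn with matplotlib 3.10.9.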

Additional observations from a re-analysis of the deposited data

How the results depend on the processing

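Of 846 re-computed values for the 6 tested genes over all comparisons and alternatives, 799 kept their direction and their side of the threshold. A further 14 lost the threshold, 6 passed it newly and 27 changed sign. The sign changes were all in comparisons in which the gene was not called, and included Sox4, Cd27 and Cd37. Only the calls of these 3 genes between the subsets on average could lose the threshold. Of 20 alternatives each, Sox4 was called in 18, Cd27 in 17 and Cd37 in 11. Counts of genes called were 38, 23 and 92 for old minus young in Ly-HSCs, in My-HSCs and on average. They were 3, 13 and 45 for Ly-HSCs minus My-HSCs in old mice, in young mice and on average, and 0 for the interaction. Among the 6 genes, 3 were called between the subsets on average and 0 elsewhere. With genes above 0 in all 12 libraries, the 6 counts before the interaction were 10, 7, 42, 1, 1 and 25. Quantile normalization, which moved the median log2 fold change of all genes from 0.18 to -0.01 for age in Ly-HSCs and from -0.13 to -0.01 for the subsets in young mice, gave 14 genes for age in Ly-HSCs, 8 for the subsets in old mice (1 higher and 7 lower, against 1 and 2) and 1 of the 6 genes for age on average. Age on average then split into 62 higher and 22 lower genes, against 82 and 10. It turned the log2 fold change of Cd37 for age in Ly-HSCs to 0.0086 and that of Il12a between the young subsets to 0.017. A replicate block gave 15 and 9 genes for age in Ly-HSCs and My-HSCs, and 1 and 4 for the subsets in old and young mice. The replicate block within age gave 0 and 0 genes by limma for the subsets in old and young mice, with 462 and 1574 at an unadjusted p under 0.05, and 17 genes on average, 1 of them among the 6. It ended the calls of Sox4 and Cd37 and no other call of the 6 genes. One weight per group gave 9 and 71 genes for age in Ly-HSCs and My-HSCs and 69 and 0 for the subsets in old and young mice (724 at an unadjusted p under 0.05 in young mice), with 2 of the 6 genes called in old mice. Cd37 then had an adjusted p of 0.108 on average. Fits on the compared libraries alone gave 0 (950 at an unadjusted p under 0.05) and 36 genes for age in the 2 subsets and 12 and 0 (780 at an unadjusted p under 0.05) for the subsets at the 2 ages. A pseudocount of 0.1 gave 1 gene for age in My-HSCs, and 1 and 22 for the subsets in old and young mice. No filter gave 56 for age in My-HSCs, 29, 2 and 69 for the subsets in old mice, in young mice and on average, and 6 for the interaction. Without both old libraries 1, the counts were 3, 2 and 51 for age, and 0, 0 and 15 for the subsets (258 and 1436 at an unadjusted p under 0.05 in old and young mice), with 1 of the 6 genes called on average. The log2 fold change of Cd27 for age in My-HSCs became 0.071 and the interaction of Sox4 -0.14. With each library left out in turn, counts ran from 7 to 223, 0 to 36 and 42 to 197 for age, and from 0 to 6, 0 to 299 and 14 to 111 for the subsets. Of the 6 genes, 0 to 1 were called for age on average, 0 to 1 for the subsets in young mice and 1 to 3 on average. Log2 fold changes that crossed 0 ran from -0.16 to 0.046 (Cd37, age in Ly-HSCs), -0.26 to 0.15 (Cd27, age in My-HSCs), -0.57 to 0.16 (Cd37, age in My-HSCs), -0.035 to 0.45 (Il12a, age in My-HSCs), -0.32 to 0.046 (Cd37, age on average), -0.037 to 0.26 (Gpr171, subsets in old mice; 0.30 without both old libraries 1), -0.25 to 0.29 (Il12a, subsets in young mice) and -0.076 to 0.35 (Lax1, subsets in young mice). For the interaction they ran from -0.050 to 0.43 (Sox4), -0.23 to 0.51 (Cd37) and -0.37 to 0.041 (Gpr171). The causes were not tested. The depth of the libraries is known only as an estimate.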

Other observations

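Further lists around the 9 genes are given as values. Of the leukocyte tetraspanins, the family of Cd37, 8 were tested. Of these, 7 had a positive log2 fold change of old over young averaged over the subsets, against 62.7% of all tested genes. Their median was 0.69, against 0.13 for all tested genes. None was called. Cd53, a tetraspanin of leukocytes, had 42.5, 6.06 and 7.06 FPKM in old Ly-HSC libraries, against 0, 6.04 and 0.984 FPKM in young Ly-HSC libraries. It had 23.98, 7.39 and 3.51 FPKM in old My-HSC libraries, against 0.494, 0.0431 and 1.95 FPKM in young My-HSC libraries. Its log2 fold change of old over young averaged over the subsets was 2.53 (adjusted p = 0.0920), and 1.77 without the old libraries 1 of both subsets (adjusted p = 0.289). The median of the 8 tetraspanins was 0.66 without these libraries, against 0.17 for all tested genes. The highest values of Cd53 were in the old libraries 1, which also had the highest granulocyte and monocyte marker sums. Tspan33 had 3.45, 3.99 and 3.05 FPKM in old Ly-HSC libraries, against 0.643, 0.708 and 0.876 FPKM in young Ly-HSC libraries. It had 5.49, 2.76 and 5.68 FPKM in old My-HSC libraries, against 0, 3.09 and 1.15 FPKM in young My-HSC libraries.

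Among 17 tested lymphoid transcription factors, 9 had a positive log2 fold change of old over young averaged over the subsets, against 62.7% of all tested genes. Their median was 0.01, against 0.13 for all tested genes. None was called. Nfil3, a factor that the development of innate lymphoid and NK cells requires in mice, had 13.6, 4.03 and 4.48 FPKM in old Ly-HSC libraries, against 0, 0 and 0.0983 FPKM in young Ly-HSC libraries. It had 18.3, 2.44 and 11.1 FPKM in old My-HSC libraries, against 0, 1.61 and 4.81 FPKM in young My-HSC libraries. Its log2 fold change of old over young averaged over the subsets was 2.38 ± 0.53 (SE; adjusted p = 0.0608). The highest values of Nfil3 were in the old libraries 1, which also had the highest granulocyte and monocyte marker sums. Id2, an inhibitor of E proteins, had 29.6, 13.7 and 13.98 FPKM in old My-HSC libraries, against 0, 0 and 0.638 FPKM in young My-HSC libraries, with a log2 fold change of 4.0 ± 0.98 (SE; adjusted p = 0.202). In Ly-HSCs it had 12.6, 1.09 and 5.80 FPKM in old libraries, against 0, 19.1 and 0.405 FPKM in young libraries. Among the old libraries of each subset, library 1 had the highest Id2 value. No fit without the old libraries 1 is given here for Nfil3 or Id2. Nfil3 and Id2 were listed at 0 in several young libraries, in which 19.3% to 34.1% of all genes were at 0.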
